A study of Mus musculus with 67 samples.

Results

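The glutathione genes described here were 10 of the 26414 genes in the deposited expression table, taken by symbol. They were the synthesis genes Gclc, Gclm and Gss, the reductase gene Gsr, and the transferase genes Gsto1, Gsta4, Gstm1, Gstm5, Gstp1 and Mgst1. Gsto1 was put on the list because it was higher in 8-cell embryos of the light group, so it was chosen by its 8-cell values, which are given as a description and were not tested. The study asked how mouse preimplantation embryos respond to strong light. C57BL/6 embryos from in vitro fertilization were exposed to high-intensity light for some hours at the 2-cell stage and were then cultured in the dark, and control embryos were kept in the dark. RNA was sequenced by SMART-seq2, which copies and amplifies the polyA RNA of very small samples. The paper describes hand-picked single cells of dissociated embryos, while the labels number an embryo for each library. A library counted as 1 replicate, with 33 libraries in the control group and 34 in the light group. The 2-cell stage had 7 control and 6 light libraries, the 4-cell stage 6 and 8, the 8-cell stage 4 and 8, the morula 13 and 6, and the blastocyst 3 and 6. No time of collection, litter or batch was given in the labels, so p-values measure only the spread between these libraries.

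Glutathione is a small peptide of glutamate, cysteine and glycine that serves as the main soluble thiol buffer of cells. Glutamate-cysteine ligase, made of the catalytic subunit Gclc and the modifier subunit Gclm, carries out the rate-limiting step, and Gss adds glycine. Gsr reduces the oxidized form again at the expense of NADPH, and glutathione S-transferases join glutathione to reactive compounds. Oocytes load glutathione during maturation, and the early embryo depends on that store before its own genome takes over. Many of these genes are known targets of NRF2, a factor that binds the antioxidant response element.

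Promoter sequences were at hand for 7 of the 10 members, in the RefSeq table for GRCm38.p6, from 250 bases before to 50 bases after the start. The 4 printed below were picked for the course of the genes over the stages. Gsto1 and Gss were both lowest at the 8-cell stage in the control group and high in morulae and blastocysts, Gclm was high at the 2-cell stage, and Gstp1 was highest in blastocysts. For Gsto1 the 8-cell values are those that chose it, and Gss was near the floor at the 4-cell stage as well. In light 8-cell libraries Gss was at 0, while Gsto1 had a mean of 151. Capitals mark matches, on either strand, to the antioxidant core TGACNNNGC, the AP-1 site TGACTCA, the GC box GGGCGG or the TATA box TATAAA.
Gsto1: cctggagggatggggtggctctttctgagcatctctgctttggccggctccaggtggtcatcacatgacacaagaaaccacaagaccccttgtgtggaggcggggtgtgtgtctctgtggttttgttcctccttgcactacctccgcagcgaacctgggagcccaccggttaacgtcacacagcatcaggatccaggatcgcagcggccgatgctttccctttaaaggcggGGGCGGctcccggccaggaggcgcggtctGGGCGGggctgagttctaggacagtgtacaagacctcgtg
Gss: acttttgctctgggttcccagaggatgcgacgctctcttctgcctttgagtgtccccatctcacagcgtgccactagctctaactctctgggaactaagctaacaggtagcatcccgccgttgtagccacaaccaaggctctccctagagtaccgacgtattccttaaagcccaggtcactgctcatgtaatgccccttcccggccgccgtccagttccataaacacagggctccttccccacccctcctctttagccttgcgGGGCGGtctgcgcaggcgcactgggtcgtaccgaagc
Gclm: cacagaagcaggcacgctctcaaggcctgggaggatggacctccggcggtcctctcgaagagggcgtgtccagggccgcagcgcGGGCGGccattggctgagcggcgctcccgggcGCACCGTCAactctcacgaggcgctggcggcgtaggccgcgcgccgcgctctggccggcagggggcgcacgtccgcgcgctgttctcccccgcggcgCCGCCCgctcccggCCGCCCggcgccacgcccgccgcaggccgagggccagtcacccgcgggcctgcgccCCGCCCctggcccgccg
Gstp1: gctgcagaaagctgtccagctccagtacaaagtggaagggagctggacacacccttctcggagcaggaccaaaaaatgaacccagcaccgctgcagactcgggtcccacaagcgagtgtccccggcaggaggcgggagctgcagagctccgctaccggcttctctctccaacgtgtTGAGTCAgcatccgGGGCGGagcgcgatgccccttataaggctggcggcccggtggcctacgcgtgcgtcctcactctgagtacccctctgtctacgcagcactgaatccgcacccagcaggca
The Gsto1 window lies at chr19:47854723-47855022 on the plus strand, and it held 2 GC boxes, 19 bases before and 10 bases after the start. The Gss window, at chr2:155592761-155593060 on the minus strand, held 1 GC box 13 bases after the start. The Gclm window, at chr3:122245307-122245606 on the plus strand, held 4 GC boxes and an antioxidant core, GCACCGTCA, 134 bases before the start. The Gstp1 window, at chr19:4037863-4038162 on the minus strand, held an AP-1 site, TGAGTCA, 74 bases before the start and a GC box 60 bases before it. The 7 members have 9 promoter entries, and a member was counted for a match in any of them, while the shares below are over single promoters. An antioxidant core was found in promoters of 3 of the 7 members and in 12.39% of 32851 promoters in the table, and a GC box in 6 of the 7 and in 35.66%. AP-1 and TATA matches were each found in 2 of the 7 members, against 5.202% and 13.62% of all promoters. Such matches are descriptions of the letters and not binding sites.

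The deposited values are the reads of a gene after division by a library-wide factor, and 1 read was worth 0.266 to 3.89. Total reads per library lay between 836011 and 8551674, of which 54.0% to 89.3% fell on the rRNA genes CT010467.1 and Gm42418, leaving 318177 to 2867030 reads for all other genes. At the 2-cell, 8-cell and morula stages the ratio of Gm42418 to CT010467.1 did not overlap between the groups. It was 2.34 to 4.03 in control and 1.58 to 1.77 in light 2-cell libraries. This difference between libraries runs with light at those stages, and its part in the results was not tested. Results were also computed on other scales, which do not remove a difference between single genes. Y-linked genes reached 10 CPM in 8 of 8 light 4-cell and 6 of 6 light blastocyst libraries, but in 0 of 20 control 8-cell, morula and blastocyst libraries, so the number of independent embryos is uncertain. In blastocysts, with 6 of 6 light against 0 of 3 control libraries, light and embryo sex cannot be told apart. The split was also uneven at the 8-cell stage, with 3 of 8 light and 0 of 4 control libraries. The stage labels were checked against 5 transient 2-cell genes. Their summed level had a median of 359.9 in control 2-cell and 1.11 in control 4-cell libraries, but 68.9 (28.4 to 263) in control 8-cell libraries, against 0.741 (0 to 21.7) in light 8-cell libraries. The control 8-cell libraries therefore stood apart from their neighbours. Among 3 cumulus cell markers found in the table, the summed level reached at most 52.5, in a light 2-cell library, and it was at most 5.52 in every other group. Reads were amplified without molecular identifiers, so read numbers cover counting error only.

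Gsto1, whose product is an omega-class transferase that also reduces dehydroascorbate, was the most abundant member per length of exon in morulae and blastocysts. In control morulae its mean level was 446 per kb of exon, ahead of Gstp1 at 65.7 and Gsr at 13.3, and in light blastocysts it was 354 per kb, ahead of Gstp1 at 135. The gene lies at chr19:47854970-47864790 on the plus strand of GRCm38. It overlaps Cfap43 on the opposite strand, and SMART-seq2 libraries do not keep the strand, so reads of the overlap cannot be told apart. Cfap43 had a mean of 11.6 ± 6.96 in control 2-cell libraries, where Gsto1 averaged 18.6, and of at most 3.24 in every other group.
At the 2-cell stage Gsto1 had a median of 20.6 (0 to 38.6) in control and 45.6 (22.1 to 122) in light libraries. At the 4-cell stage the medians were 40.4 (1.97 to 140) and 80.0 (8.34 to 158). These ranges overlapped at both stages.
In the 4 control 8-cell libraries the values were 0, 1.60, 0 and 8.76, which is 24 reads in all. In the 8 light 8-cell libraries the median was 116 (59.8 to 389). The groups did not overlap at this stage, as for 5.61% of all genes tested, and the log2 difference of light from control was 5.83. This is the contrast that chose the gene, and it carries no test. The 4 control libraries had, in the same order, 709753, 1346643, 453578 and 1482728 reads outside the rRNA genes. Their summed transient 2-cell genes were 28.7, 263, 109 and 28.4, while no light 8-cell library exceeded 21.7. Light replicates 5 and 11, with 728625 and 652581 reads outside the rRNA genes, had Gsto1 values of 389 and 124. Whether depth or the transient 2-cell genes have a part in the Gsto1 difference was not tested.
In morulae both groups were high, with a median of 801 (534 to 1787) in control and 846 (231 to 1349) in light libraries. Control blastocysts had values of 324, 649 and 353, and light blastocysts a median of 739.6 (473 to 969). On the log2 scale control morulae lay 8.55 above control 8-cell libraries, and light morulae lay 2.50 above light 8-cell libraries, as descriptions.
Ordered by mean, control morulae came first with 901 ± 367 (SD, n = 13), then light morulae with 836 ± 427 (n = 6), light blastocysts with 716 ± 178 (n = 6) and control blastocysts with 442 ± 180 (n = 3). Light 8-cell libraries followed with 151 ± 108 (n = 8), light 4-cell with 82.1 ± 52.7 (n = 8), light 2-cell with 52.6 ± 37.3 (n = 6), control 4-cell with 52.1 ± 50.5 (n = 6), control 2-cell with 18.6 ± 12.9 (n = 7) and control 8-cell with 2.59 ± 4.18 (n = 4). The ranges of every neighbouring pair in this order overlapped.

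**Figure D1:**
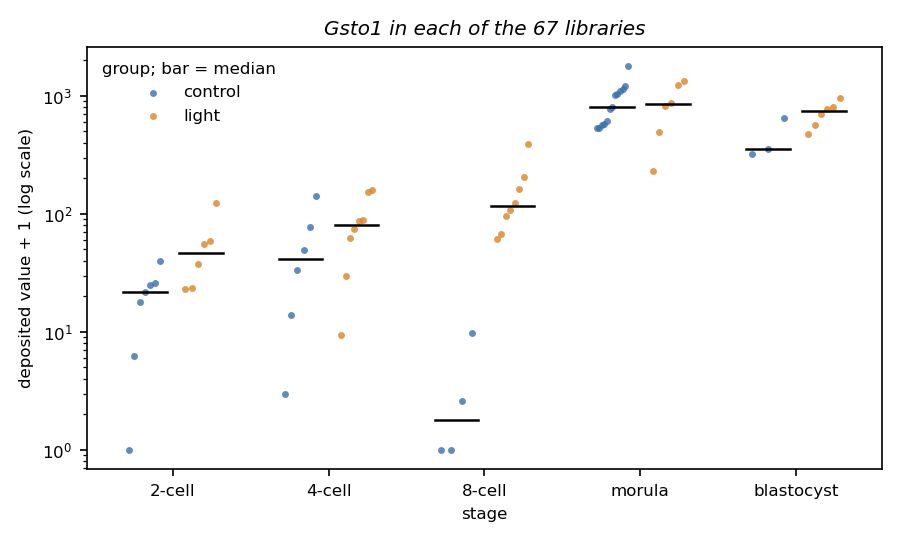
Gsto1 in each of the 67 libraries, with stage on the x axis and the deposited value plus 1 on a logarithmic y axis. Points are libraries, sorted by value within a group, and bars are group medians. The 4 control 8-cell libraries lie at 0 to 8.76 before 1 is added, below all 8 light 8-cell libraries, while morulae of both groups lie at 231 or above.

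The genes whose pattern was most like that of Gsto1 were found by Pearson correlation of log2 values over the 67 libraries among 11221 genes with a mean of at least 10 in some group. They included Sdc4, a cell-surface proteoglycan (r = 0.839, rho = 0.823), Actg1, a cytoplasmic actin (r = 0.834, rho = 0.876), Khdc3, a maternal-effect gene (r = 0.834, rho = 0.884), and Tfcp2l1, a transcription factor of pluripotent cells (r = 0.819, rho = 0.828). All points share stage and library scale, and the 8-cell values used are those that chose Gsto1. Among the members themselves the highest correlations were those of Gsto1 with Gss (r = 0.663) and with Gstp1 (r = 0.561), and the lowest was that of Gstm5 with Gsr (r = -0.348).

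The ligase genes Gclc and Gclm had their highest control means at the 2-cell stage, at 26.0 and 61.9. Gclc, at chr9:77754535-77794485 on the plus strand, had a median of 22.2 (8.27 to 52.2) in 7 control 2-cell libraries and 1.57 (0 to 47.6) in 6 control 4-cell libraries. The log2 difference was -2.35 (SE 0.89), with an adjusted p of 0.0352 in limma. This call was lost with edgeR (-0.97, adjusted p 0.448), DESeq2 (-1.06, adjusted p 0.376), quantiles (-1.37, adjusted p 0.199) and no filter (adjusted p 0.0553). In every later group of both conditions its mean was at most 5.87, and single values reached 18.7. Light 2-cell libraries had a median of 21.6 (0 to 35.7).
Gclm, at chr3:122245557-122270732 on the plus strand, overlaps Gm17494 on the opposite and Gm6061 on the same strand. It had a median of 55.9 (34.4 to 128) in control 2-cell and 2.98 (0 to 18.2) in control 4-cell libraries. In the light group the medians were 96.0 (45.4 to 137) and 17.7 (1.45 to 31.9). Gclm fell in both groups between these stages, with a log2 difference of -3.99 in control (SE 0.70, adjusted p 7.99e-05) and of -2.74 in light embryos (SE 0.55, adjusted p 0.000223). The overlapping Gm17494 went from 52.8 ± 18.4 to 4.20 ± 2.32 in control and from 44.4 ± 29.4 to 4.75 ± 4.93 in light embryos, and Gm6061 from 20.2 ± 7.34 to 0.880 ± 1.10 and from 10.9 ± 8.04 to 1.30 ± 0.908. The levels of these 3 genes thus moved together at this step, and their shared reads cannot be told apart. The Gclm stages did not overlap in either group, which held for 20.4% of all genes in control and 13% in light embryos.
In the 8-cell stage Gclm values were 0, 14.4, 3.48 and 67.6 in the control group, and the light group had a median of 7.53 (0.997 to 50.5). In light morulae it rose again to a median of 68.1 (45.4 to 153), with a log2 difference of 3.04 from light 8-cell libraries (SE 0.60, adjusted p 0.00107). The overlapping Gm17494 and Gm6061 stayed low at this step, at 4.00 and 1.44 in light 8-cell libraries and 5.29 and 1.64 in light morulae. In control morulae the median of Gclm was 17.7 (0 to 76.1). In blastocysts its groups lay close, with 31.6, 60.2 and 41.7 in control and a median of 44.0 (21.7 to 55.3) in light libraries.

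Gss, which completes the peptide, lies at chr2:155563181-155592810 on the minus strand. It overlaps Acss2, Gssos1 and Gssos2 on the opposite strand, and reads of the overlap cannot be told apart without strand. Acss2 had means of 2.41, 6.56 and 47.1 in control and 10.9, 17.6 and 26.2 in light 8-cell, morula and blastocyst libraries. At the 2-cell stage the median of Gss was 1.04 (0 to 28.3) in control and 7.81 (1.13 to 18.2) in light libraries. At the 4-cell stage it was near the floor, with a mean of 0.300 ± 0.467 in 6 control and 1.49 ± 2.55 in 8 light libraries. No read was found in any of the 4 control and 8 light 8-cell libraries. A count of 0 allows up to 3 reads, which is a value of at most 3.48 in a control and 2.99 in a light library.
Morulae had a median of 23.2 (0 to 124) in control and 27.8 (12.6 to 62.5) in light libraries. Against 3 reads per library in the 8-cell stage, the means were at least 10.5-fold higher in control and at least 10.8-fold higher in light morulae. Gss passed the filter on low values through the morulae alone in both groups, so these differences are given as a description. Of the 13 control morulae, 1 was at 0. In blastocysts the values were 94.2, 88.7 and 105 in control, and the median was 80.5 (43.8 to 95.9) in light embryos, where the rise over morulae passed the test (log2 difference 1.43, SE 0.44, adjusted p 0.0169), and was lost in 1 fit over all groups (adjusted p 0.272).
The small fall of Gss between the light 2-cell and 4-cell stages (log2 difference -1.86, SE 0.68, adjusted p 0.0304) was lost under 6 of the 8 other settings that tested the gene.

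Gsr, at chr8:33652523-33698163 on the plus strand, was highest at the 4-cell stage. In the 2-cell stage its median was 11.7 (0.869 to 29.0) in control and 32.5 (0 to 75.6) in light libraries, and at the 4-cell stage it was 93.7 (41.7 to 236) and 175 (95.8 to 236). The 2 stages did not overlap in either group, as for 20.4% of all genes in control and 13% in light embryos. Gsr rose by a log2 difference of 3.09 in control (SE 0.63, adjusted p 0.000383) and 3.01 in light embryos (SE 0.59, adjusted p 0.000197).
At the 8-cell stage the control values were 93.5, 17.6, 4.64 and 101, against a median of 127 (61.6 to 259) in the light group. Light morulae, with a median of 53.6 (13.8 to 80.9), lay below light 8-cell libraries (log2 difference -1.55, SE 0.36, adjusted p 0.0045), a call that was lost in 1 fit over all groups (adjusted p 0.199). Control morulae had a median of 40.0 (1.05 to 103), and blastocysts had 27.9, 106 and 32.1 in control and a median of 31.8 (12.9 to 60.9) in light libraries.

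Gstm5 and Gstm1 encode mu-class transferases, which resemble each other closely, so reads may be shared within the family. Gstm5, at chr3:107895821-107898686 on the plus strand, had a median of 21.8 (1.84 to 49.0) in control 2-cell libraries and was the most abundant member there per length of exon, at 17.2 per kb. Its opposite-strand neighbour 4933431E20Rik had a mean of 36.6 ± 18.9 in the same 7 libraries, and reads of the overlap cannot be told apart. At the control 4-cell stage Gstm5 was at 0 in 5 of 6 libraries and at 15.6 in the other, a log2 difference of -3.36 (SE 0.83), given as a description because the gene passed the filter through the 2-cell libraries alone. It stayed at group means of at most 2.61 from then on in both conditions. In light 2-cell libraries the median was 5.91 (0 to 13.3).
Gstm1, at chr3:108012255-108017973 on the minus strand, had a median of 7.82 (0 to 22.2) in control 2-cell libraries, from 95 reads in all, and 1 read in the 6 control 4-cell libraries. With reads pooled over libraries and scaled, the ratio was 96.5 with a 95% counting interval of 16.9 to 3851. That interval leaves out the spread between libraries, and 1 control 2-cell library held 56 of the 95 reads. The gene passed the filter through the 2-cell libraries alone, so the ratio is a description. In blastocysts it had values of 11.0, 9.05 and 3.21 in control and a median of 10.8 (1.16 to 14.7) in light libraries. No read was found in the 6 light morulae, so light blastocysts were at least 2.40-fold higher than 3 reads per morula library, as a description. Control blastocysts lay 2.65 above control morulae on the log2 scale (SE 0.64). The filter was passed through the blastocysts alone in both groups. The close relative Gstm2 had 28.6 ± 7.57 in control and 16.5 ± 11.4 in light blastocysts.
Gsta4, at chr9:78182774-78209349 on the plus strand, encodes an alpha-class transferase that acts on the lipid peroxidation product 4-hydroxynonenal. Its group means were at most 18.3 before the blastocyst. Control blastocysts had 46.3, 92.5 and 114, all above the 13 control morulae with a median of 0.933 (0 to 15.5), a rise of 4.81 on the log2 scale (SE 1.03, adjusted p 0.00244). Groups that did not overlap were found for 7.88% of all genes in this step. Light blastocysts had a median of 59.0 (36.1 to 118) and light morulae one of 13.9 (2.62 to 39.4), and this rise passed the test as well (log2 difference 2.09, SE 0.51, adjusted p 0.00316), though not in 1 fit over all groups (adjusted p 0.137).
Gstp1, at chr19:4035407-4037985 on the minus strand, encodes the pi-class transferase and has close copies, Gstp2 and Gstp3. It was found at every stage. Gstp2 had 49.6 ± 21.7 and 45.1 ± 41.2 in control and light morulae and 97.0 ± 19.7 and 111 ± 42.2 in blastocysts, and reads may be shared. The 2-cell medians were 15.7 (4.60 to 46.9) in control and 9.83 (0 to 25.0) in light libraries, and the 4-cell medians 38.1 (0.380 to 158) and 6.99 (2.83 to 65.2). Control 8-cell values were 17.6, 13.3, 29.0 and 22.1, against a light median of 18.9 (9.47 to 67.9). Morulae had medians of 78.4 (3.67 to 273) and 76.5 (7.59 to 190). Light blastocysts, with a median of 207 (111 to 286), were higher than light morulae (log2 difference 2.00, SE 0.52, adjusted p 0.00504), a call lost in 1 fit over all groups (adjusted p 0.123), and control blastocysts had 65.8, 164 and 149.
Mgst1, a microsomal transferase gene at chr6:138140316-138156755 on the plus strand, had reads in a single library, 44 reads and a value of 17.5 in control 2-cell replicate 8, and was at 0 in the other 66.

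**Figure D2:**
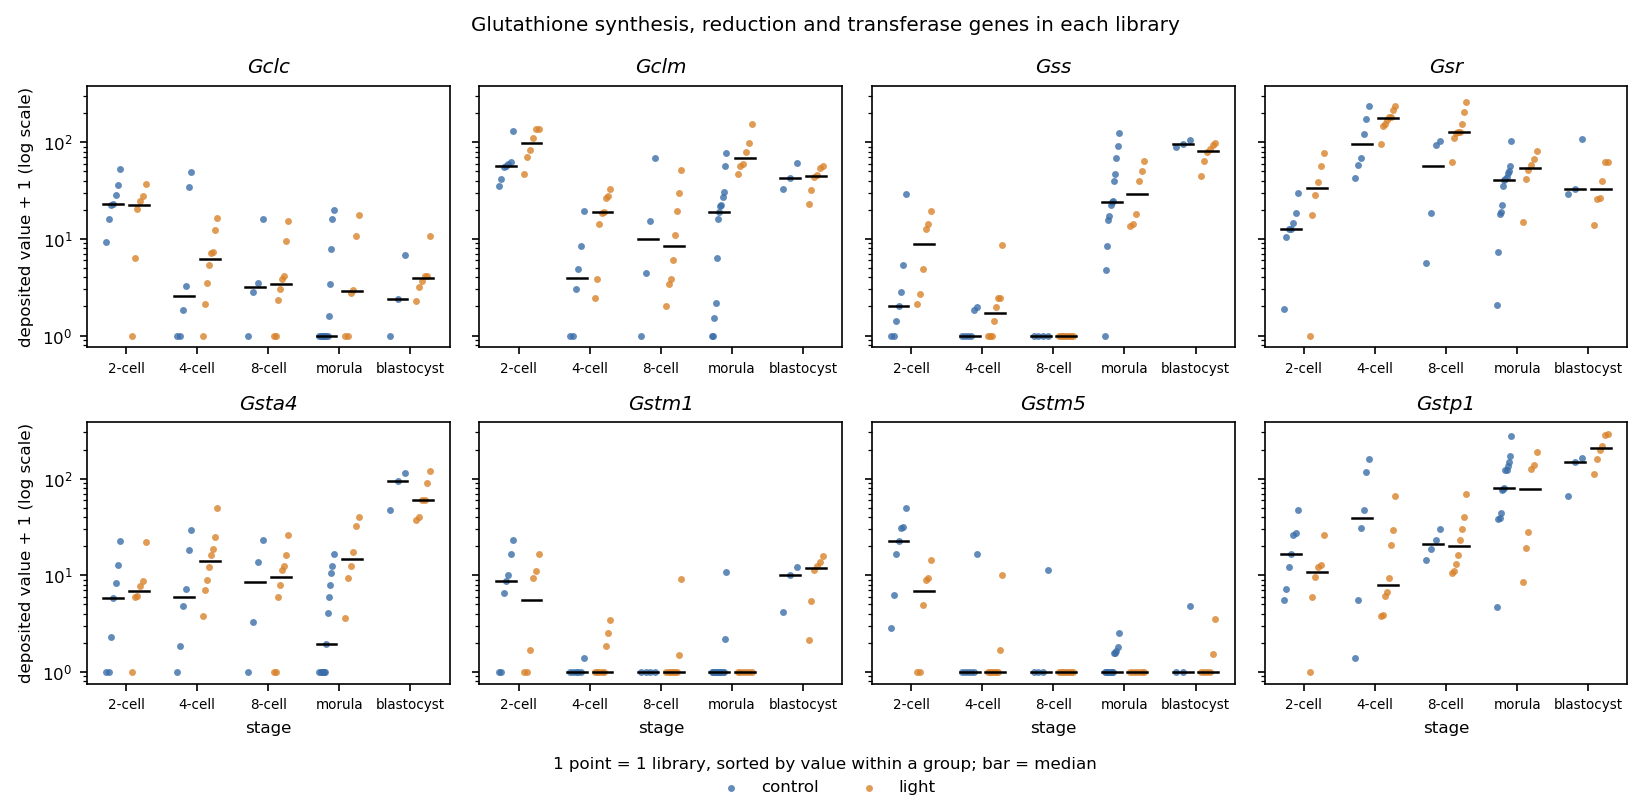
The members other than Gsto1 and Mgst1 in each library, with stage on the x axis and the deposited value plus 1 on a shared logarithmic y axis. Points are libraries, sorted by value within a group, and bars are medians. Gclm is highest at the 2-cell stage in control embryos and Gsr at the 4-cell stage, Gss is at 0 in all 8-cell libraries, and Gsta4 is highest in blastocysts.

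Calls were counted over the members tested at each step. A call needed an adjusted p under 0.05 in limma over all genes tested and a fold of at least 2. From the 2-cell to the 4-cell stage 5 of 9 members were called in control embryos, against 46.1% of all genes tested. In light embryos 3 of 9 were called at this step, against 36.5%. These shares are near those of all genes. From the 4-cell to the 8-cell stage limma called 0 of 5 members in control (background 6.31%) and 0 of 7 in light embryos (10.6%), edgeR and DESeq2 also called 0, and 1 member in each group had an unadjusted p under 0.05. From the 8-cell stage to the morula 1 of 6 members was called in control (14.3%) and 3 of 6 in light embryos (11.8%). From the morula to the blastocyst the counts were 2 of 8 in control (11.9%) and 4 of 8 in light embryos (20.7%). Of these 18 calls, 6 were of members that passed the filter on low values through 1 group alone and so had to differ, namely Gstm1 and Gstm5 in the first control step, Gss from the 8-cell stage to the morula in both groups and Gstm1 from the morula to the blastocyst in both. Gsto1 fell short of a call from control morulae to blastocysts, with a log2 difference of -0.997 and an adjusted p of 0.0608.

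Of the members tested at the 5 stages, Gsr at the 8-cell stage was the only one called between light and control embryos. At the 2-cell stage limma called 0 of 9 members, against 10.5% of all genes, although 2 members, Gsto1 and Gstm5, had an unadjusted p under 0.05. Gsto1 had a log2 difference of 1.79 (SE 0.71, adjusted p 0.101) and Gstm5 one of -1.95 (SE 0.86, adjusted p 0.146). Both were called in a fit over all 10 groups, which pools the spread of all stages, with adjusted p of 0.0386 and 0.0191. The summed level of 6 oocyte maternal genes was also unlike between these groups, with a median of 3658 (2410 to 5320) in control and 1115 (714 to 2153) in light libraries, and its part in the Gstm5 values was not tested. At the 4-cell stage 0 of 7 members were called (background 1.45%), and Gclm and Gsr had an unadjusted p under 0.05. edgeR and DESeq2 called 0 members at both stages.
At the 8-cell stage 1 of the 5 members tested was called, against 9.21% of all genes. This was Gsr, with a mean of 145 ± 61.3 in 8 light and 54.1 ± 49.96 in 4 control libraries and a log2 difference of 2.10 (SE 0.56, adjusted p 0.0190). The groups overlapped. Control replicates 2 and 3, with Gsr at 17.6 and 4.64, had sums of transient 2-cell genes of 263 and 109. The replicates with Gsr at 93.5 and 101 had sums of 28.7 and 28.4. Replicate 3, the lowest in Gsr, also had the fewest reads outside the rRNA genes, 453578. Whether depth or the transient 2-cell genes have a part in the Gsr difference was not tested. The call was lost without replicate 2 (1.84, adjusted p 0.0667) or without replicate 3 (1.27, adjusted p 0.10). It was also lost with edgeR (1.33, adjusted p 0.129), DESeq2 (1.26, adjusted p 0.0919), no filter (2.10, adjusted p 0.0605) and 1 fit over all groups (2.10, adjusted p 0.0954). Gss, Gstm1, Gstm5 and Mgst1 had too few reads for a test at this stage.
In morulae 0 of 7 members were called, against 1.18% of all genes, and Gclm and Gsta4 had an unadjusted p under 0.05. Gclm came closest, with a mean of 81.4 ± 39.8 in 6 light and 20.8 ± 23.0 in 13 control morulae and a log2 difference of 2.91 (SE 0.81, adjusted p 0.0635). It was called when libraries were scaled by the median ratio (3.09, adjusted p 0.0373), by reads outside the rRNA genes (3.25, adjusted p 0.0404) or by quantiles (3.01, adjusted p 0.0342), and edgeR and DESeq2 called 0 members.
In blastocysts limma called 0 of 8 members, against 5.34% of all genes, and only Gsto1 had an unadjusted p under 0.05. On the deposited scale the median of all genes was 0.64 lower in light embryos, and 4 members lay above and 4 below control. Under the median ratio, reads outside the rRNA genes, quantiles, edgeR and DESeq2, all 8 members tested lay above control. Gsto1 and Gstp1 were then called by each of these 5 settings. Under these settings the median of all genes lay between -0.10 and 0.02, and 1.18% to 3.53% of all genes were called. For Gsto1 the log2 difference went from 0.73 (adjusted p 0.184) to between 1.24 and 1.4997, and for Gstp1, with means of 209 ± 68.9 in light and 126 ± 52.8 in control blastocysts, from 0.76 (adjusted p 0.254) to between 1.40 and 1.53. The summed level of 6 inner cell mass markers was 164 (136 to 205) in light and 972 (284 to 1158) in control blastocysts. That of 6 trophectoderm markers was 3871 (2628 to 6789) and 2872 (455 to 6094). The part of the cell types picked was not tested, nor was that of the Y-linked difference between these groups given above.

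**Figure D3:**
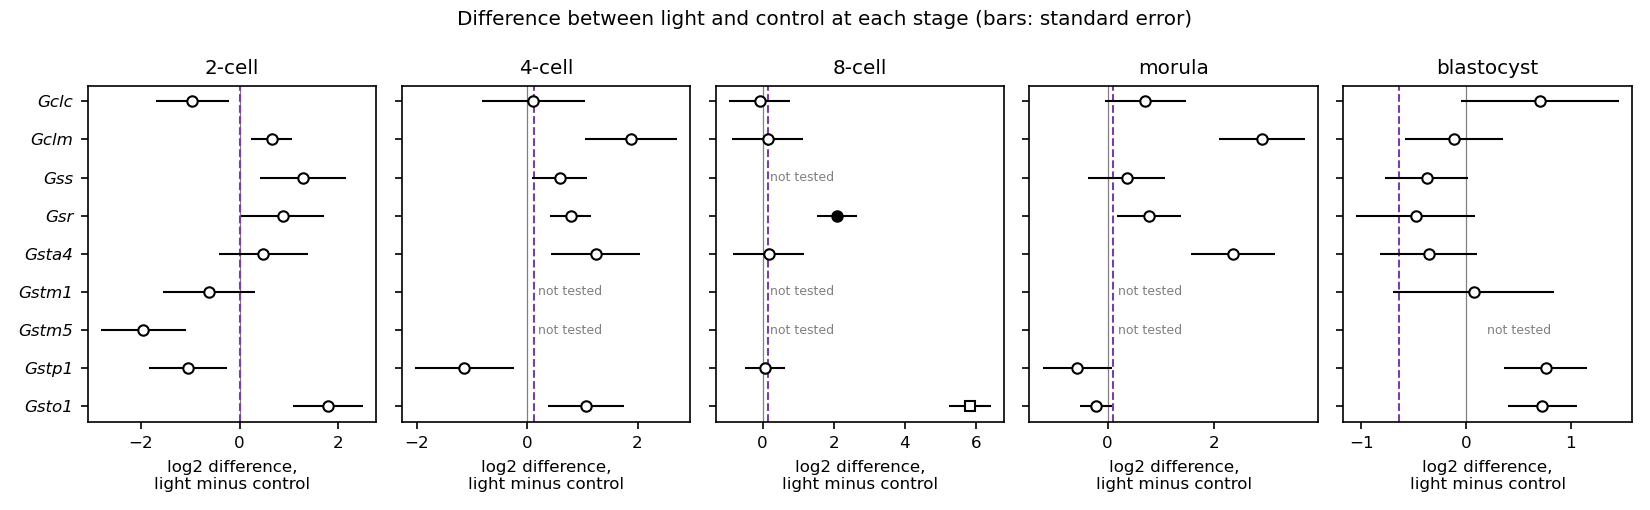
Log2 difference of light from control embryos for each member at each stage, 1 panel a stage, with standard errors as bars and the zero of no difference in grey. The dashed line is the median of all genes tested, filled symbols were called, and the square is Gsto1 at the 8-cell stage, which chose the gene and has no test. Gsr at the 8-cell stage is the only filled symbol, and in blastocysts the median of all genes lies at -0.64.

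Whether the light difference was unlike at neighbouring stages was tested by an interaction term. limma called 0 of 9 members from the 2-cell to the 4-cell stage (background 3.07%), 0 of 8 from the 4-cell to the 8-cell stage (3.8%), 0 of 7 from the 8-cell stage to the morula (2.62%) and 0 of 9 from the morula to the blastocyst (1.57%). The numbers with an unadjusted p under 0.05 were 0, 0, 1 and 2, and edgeR and DESeq2 called 0 members in each. From the morula to the blastocyst these were Gsta4 and Gclm, with adjusted p of 0.226 and 0.213.

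Other genes around glutathione were taken from 5 lists, whose counts are read against the 10.5%, 1.45%, 9.21%, 1.18% and 5.34% of all genes called at the 5 stages in turn. Of 22 further transferase genes in the table, 11, 8, 7, 14 and 14 were tested at the 5 stages in turn, and limma called 0 at each. Of the genes of cysteine supply and glutathione turnover, 3 of 21 passed at the 2-cell stage, against 10.5% of all genes, each of them higher after light. They were Lap3, an aminopeptidase, with 77.1 ± 41.4 in light and 15.6 ± 15.2 in control libraries (log2 difference 2.76, adjusted p 0.00947), Cth, which makes cysteine from cystathionine, with 116 ± 64.2 and 29.2 ± 21.5 (2.12, adjusted p 0.0193), and Cndp2, named after its values were seen, with 89.9 ± 74.8 and 12.0 ± 11.9 (2.79, adjusted p 0.0276). Cndp2 lost its call without any 1 of 6 of the 13 libraries and with no filter (adjusted p 0.0641). The call of Cth was lost without light 2-cell replicate 10 (1.92, adjusted p 0.0576) or 14 (1.92, adjusted p 0.0589).
At the 4-cell stage 1 of 19 was called, against 1.45% of all genes, the aminopeptidase gene Anpep, with 52.2 ± 37.4 and 7.39 ± 9.38 (2.96, adjusted p 0.0462). The Anpep call was lost without any 1 of 11 of the 14 libraries. It was also lost with edgeR (adjusted p 0.0532), a pseudocount of 0.1 (adjusted p 0.0652) and no filter (adjusted p 0.104). At the 8-cell stage 2 of 17 were called, against 9.21% of all genes. Cndp2, a dipeptidase that splits cysteinylglycine, was at 143 ± 54.0 in light and 16.0 ± 14.7 in control libraries (3.32, adjusted p 3.69e-05), and Cth at 170 ± 40.7 and 49.7 ± 28.2 (1.94, adjusted p 0.00136). In both genes the 8-cell groups did not overlap, which held for 5.61% of all genes. In morulae 0 of 17 were called.
The list for supply of NADPH, the reductant of Gsr, also holds pentose phosphate genes whose enzymes do not themselves make NADPH, among them Taldo1 and Tkt. Of this list 1 of 9 was higher at the 2-cell stage, Taldo1, with 129 ± 52.9 and 35.7 ± 24.8 (1.96, adjusted p 0.00687). Another 1 was lower, G6pdx, which opens the pentose phosphate pathway and makes NADPH, with 187 ± 96.2 and 381 ± 117 (-1.11, adjusted p 0.0211). The G6pdx call was lost without control 2-cell replicate 10 (-1.003, adjusted p 0.0568) or light 2-cell replicate 10 (-1.02, adjusted p 0.0548) or 14 (-0.94, adjusted p 0.0651), and in 1 fit over all groups (adjusted p 0.4002). At the 8-cell stage 2 of 8 were higher without overlap, where 9.21% of all genes were called and 5.61% did not overlap, the cytosolic isocitrate dehydrogenase Idh1 with 69.4 ± 30.0 and 3.80 ± 4.69 (4.32, adjusted p 5.87e-05) and the transketolase Tkt with 140 ± 40.4 and 17.7 ± 18.7 (3.72, adjusted p 0.000177). At the 4-cell and morula stages 0 genes of this list were called.
Of NRF2 with its regulators and targets, 3 of 18 were called at the 2-cell stage, against 10.5% of all genes, all higher. Hmox1, the heme oxygenase gene, had 39.6 ± 38.1 in light and 3.596 ± 7.39 in control libraries (3.599, adjusted p 0.00827). Bach1, which encodes a repressor of Hmox1, had 199 ± 69.2 and 73.6 ± 44.7 (1.53, adjusted p 0.00866). Txnrd1, a thioredoxin reductase gene named after its values were seen, had 75.4 ± 32.9 and 24.4 ± 19.9 (1.76, adjusted p 0.0422). Txnrd1 lost its call without any 1 of 8 of the 13 libraries and in 1 fit over all groups (adjusted p 0.107). The same held with a pseudocount of 0.1 (adjusted p 0.0551) and no filter (adjusted p 0.066).
At the 8-cell stage 2 of 16 were called without overlap, against 9.21% of all genes called and 5.61% without overlap. Cul3, part of the ligase that degrades NRF2, was lower with 53.9 ± 33.4 against 182 ± 32.9 (-1.97, adjusted p 0.00455), and the ferritin gene Ftl1 was higher with 647 ± 206 against 285 ± 64.1 (1.16, adjusted p 0.00237), a fold that fell under 2 by the median ratio, quantiles and DESeq2. Cndp2, Cth, Idh1, Tkt, Cul3 and Ftl1 kept their 8-cell calls with each of the 12 libraries left out in turn, but Cth (adjusted p 0.0564) and Ftl1 (adjusted p 0.131) lost them in 1 fit over all groups, and the transient 2-cell genes that differed between these groups are given above. In morulae 1 of 17 was called, against 1.18% of all genes, Hmox1 with 65.4 ± 38.5 against 4.29 ± 9.00 (4.31, adjusted p 0.00988), and it was lost with DESeq2 (3.88, adjusted p 0.181). At the 4-cell and blastocyst stages 0 were called.
Of the peroxidases, glutaredoxins and glyoxalases, 1 of 13 was called at the 2-cell stage, the glutaredoxin gene Glrx3 with 186 ± 98.2 against 43.3 ± 26.2 (2.06, adjusted p 0.00399). In morulae 1 of 13 was called, against 1.18% of all genes, Esd, which hydrolyses S-formylglutathione, with 17.7 ± 10.8 against 3.16 ± 5.93 (2.99, adjusted p 0.0423). The Esd call was lost without any 1 of 15 of the 19 libraries. It was also lost with edgeR (2.78, adjusted p 0.245), DESeq2 (2.85, adjusted p 0.219) and no filter (adjusted p 0.0649).
In blastocysts 4 of 16 genes of cysteine supply and turnover, 1 of 13 peroxidases, glutaredoxins and glyoxalases and 1 of 9 NADPH genes were called, against 5.34% of all genes. All 6 were lower in light embryos on the deposited scale, as were 93.4% of the calls over all genes. The named genes were Abcc5, an exporter, with 33.0 ± 26.1 against 168 ± 93.1 (-2.52, adjusted p 0.0178), Lap3 with 25.6 ± 15.2 against 126 ± 59.6 (-2.28, adjusted p 0.0159), Glrx with 59.0 ± 18.2 against 211 ± 11.5 (-1.88, adjusted p 0.0107) and the malic enzyme gene Me1 with 127 ± 37.2 against 357 ± 75.1 (-1.52, adjusted p 0.0196). Slc3a2 (-1.81, adjusted p 0.0320) and Slc1a4 (-2.50, adjusted p 0.0279), amino acid transporter genes, were named after their values were seen. Abcc5, Lap3, Glrx, Me1 and Slc1a4 did not overlap between the groups, as for 12.5% of all genes. Each of the 6 genes lost its call by the median ratio, reads outside the rRNA genes, quantiles and edgeR, and without control blastocyst 2, with adjusted p between 0.0538 and 0.44.
The median log2 difference of each list was read beside that of all genes. For the transferase list it was -0.54, 0.26, 1.198, 0.11 and -0.52 over the 5 stages, for cysteine supply and turnover 0.48, 0.15, 0.18, 0.53 and -0.60, and for NADPH supply 0.74, -0.06, 0.82, 0.17 and -0.49. It was 0.33, -0.40, 0.22, 0.73 and -0.42 for the peroxidases, glutaredoxins and glyoxalases and 0.21, 0.15, 0.19, 0.20 and -0.38 for NRF2 and its targets, against 0.00, 0.13, 0.16, 0.10 and -0.64 for all genes tested.

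**Figure D4:**
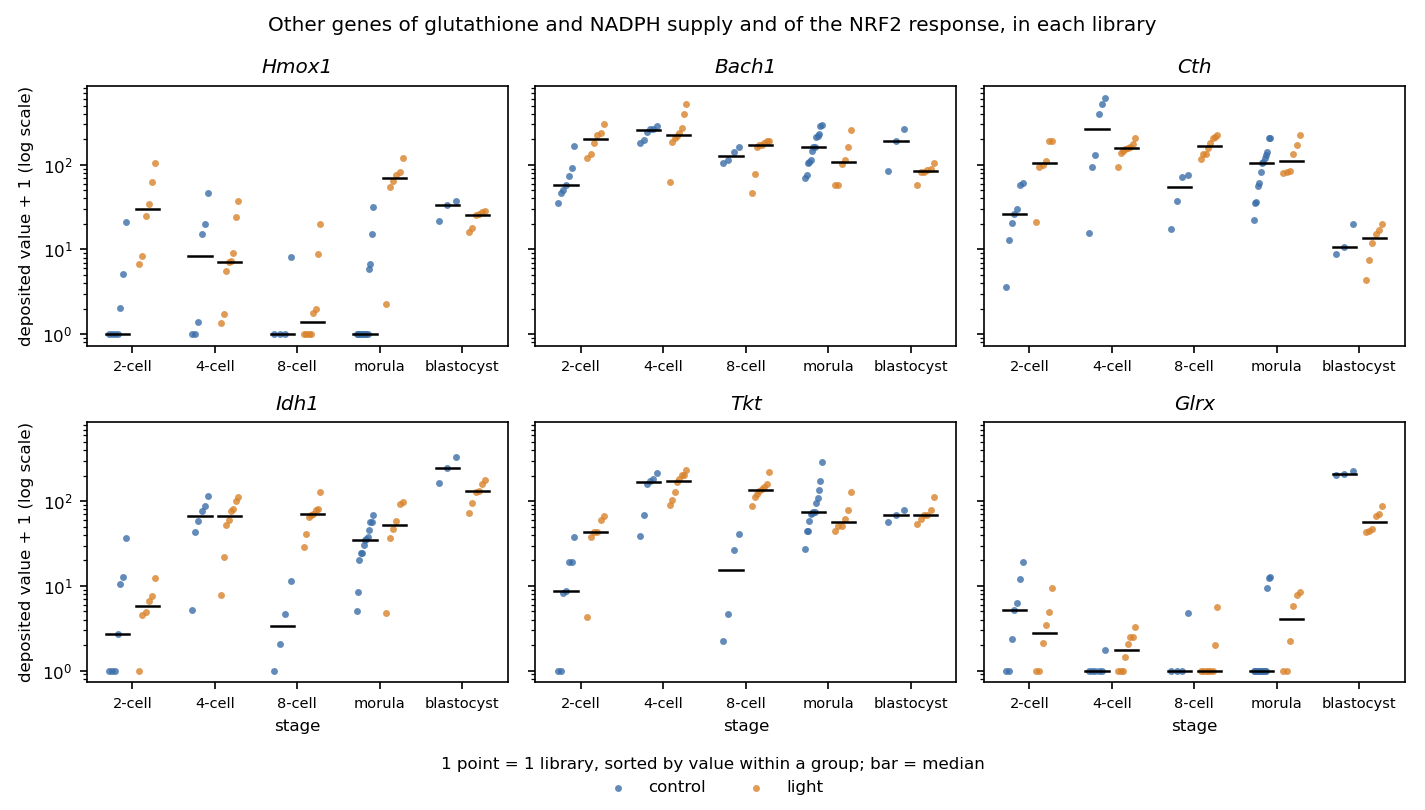
Hmox1, Bach1, Cth, Idh1, Tkt and Glrx in each library, with stage on the x axis and the deposited value plus 1 on a shared logarithmic y axis. Points are libraries, sorted by value within a group, and bars are medians. Hmox1 has higher medians in light 2-cell embryos and morulae, Idh1 and Tkt are higher in all 8 light than in all 4 control 8-cell libraries, and Glrx is lower in all 6 light than in all 3 control blastocysts on the deposited scale.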

How the data were processed

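Reads of 67 SMART-seq2 libraries were aligned and counted by the authors. The submitters' processing notes name HISAT2, HTSeq 0.9.1 and mm9. The authors deposited signal values for 26414 genes, that is, reads scaled by 1 factor per library. RPKM is named in the paper, but the values carry no correction for gene length, and 99.97% or more of a library's values came out as whole reads (tolerance 0.01 reads). The design had assumed RPKM or counts, and the test for normalised values was kept. With R 4.3.3 and limma 3.58.1, log2(value + 1) was fitted by lmFit and eBayes with trend, a scale that understates differences of low genes. Genes needed a value over 1 in 3 or more libraries of the comparison. Calls needed a Benjamini-Hochberg adjusted p under 0.05 and a 2-fold difference, which are the paper's thresholds.

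Light was compared with control at each stage, neighbouring stages within each group, and the light difference between neighbouring stages by an interaction term, without covariates. Alternatives were a pseudocount of 0.1, no filter, a mean above 5, scaling by the median ratio or by reads outside the rRNA genes, quantile normalization, DESeq2 1.42.0 and edgeR 4.0.16 (TMM, quasi-likelihood test) on whole reads, 1 fit over all groups, a replicate block, and libraries left out in turn. For light against control, limma and edgeR were also run on simulated reads, and the outcome is not given here.

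The 10 members and the lists were chosen with earlier results of these data known. All members are named, with up to 2 called genes of smallest p per list and stage with a mean of at least 10 in a group, and the 5 genes most like Gsto1, predicted genes aside, of which 1 is not reported here. Gsto1 was not tested in comparisons of 8-cell libraries, which enter 1 fit over all groups through the shared spread. Coordinates are those of GENCODE M21 on GRCm38, matched by symbol, and promoters are RefSeq's on GRCm38.p6. Ratios of reads carry exact 95% intervals, computed with scipy 1.17.1 in Python 3.11.15, and figures were drawn with matplotlib 3.10.9. Gsto2 was not among the symbols of the table.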

Additional observations from a re-analysis of the deposited data

Results flagged for a closer look

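Dixon's test was applied to 38 sets, each the values of a member in a group of 4 to 10 libraries with a mean of at least 10, and it set apart the highest value in 4 of them, where chance alone gives about 1 in 20. Gsto1 was at 122 in light 2-cell replicate 14, from 73 reads, while the others lay between 22.1 and 57.5. Light 4-cell replicate 11 was the highest in both Gsta4, with 48.3 from 43 reads against 2.83 to 24.1, and Gstp1, with 65.2 from 58 reads against 2.83 to 28.4. Gclm was at 128 in control 2-cell replicate 12, with 34.4 to 61.5 in the others.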

How the results depend on the processing

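The number of members called kept within 1.5 times its value in 126 of 149 combinations of a comparison with another setting that neither left out a library nor used a block, and it moved in 23. Many of the kept counts were 0 that stayed 0, and an equal count can hide a change of genes. With edgeR the control step from the 2-cell to the 4-cell stage stayed at 5 members. There Gclc lost its call (-0.97, adjusted p 0.448) and Gss gained one (-3.97, adjusted p 0.0378). With quantiles the same step in light embryos stayed at 3, with Gss lost (adjusted p 0.235) and Gsta4 gained (adjusted p 0.0182). For light against control the number called went from 0 to 2 at the 2-cell stage in 1 fit over all groups, and from 1 to 0 at the 8-cell stage without a filter, with edgeR, with DESeq2 and in 1 fit over all groups. In morulae it went from 0 to 1 by the median ratio, reads outside the rRNA genes, quantiles and 1 fit over all groups. In blastocysts it went from 0 to 2 by the median ratio, reads outside the rRNA genes, quantiles, edgeR and DESeq2. Between stages, control morulae against 8-cell embryos went from 1 to 2 with edgeR and DESeq2, control blastocysts against morulae from 2 to 1 with a mean above 5, quantiles, edgeR and DESeq2, and light blastocysts against morulae from 4 to 1 in 1 fit over all groups. The interaction from morula to blastocyst went from 0 to 1 by the median ratio and by reads outside the rRNA genes, and that member was Gsto1 (1.499, adjusted p 0.0458, and 1.53, adjusted p 0.0455). The cause was not tested.

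With each library left out in turn, light against control gave 0 members at the 2-cell, 4-cell and blastocyst stages, 0 to 1 at the 8-cell stage and 0 to 1 in morulae, where Gclm was called without control morula 16 or 21. With a control 8-cell or blastocyst library left out, the steps between control stages gave 0 from the 4-cell to the 8-cell stage, 1 from there to the morula and 1 to 3 from the morula to the blastocyst, where Gstm1 lost its call without control blastocyst 1 (2.35, adjusted p 0.0533).

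Replicate numbers did not pair the libraries, since the deviations of 29 same-numbered pairs correlated between -0.0873 and 0.0695. With the replicate number as a block, members called fell to 0 for control morulae against 8-cell embryos, control blastocysts against morulae and light 4-cell against 2-cell embryos, where it called 0 of all 14966, 14972 and 17258 genes tested, so this is not particular to the members. The log2 difference of Gsta4 between light 4-cell and 2-cell embryos turned to -0.40, and Gsr lost its call from light 8-cell embryos to morulae (-1.57, adjusted p 0.0596). Of the other 6 comparisons that could be fitted with the block, light morulae against 8-cell embryos went from 3 to 2 members called. The rest had 0 members called with and without the block. Between light and control at the 2-cell, 4-cell and morula stages the block called 0 of all genes tested, so the like count there says nothing about the members. No paired analysis was possible for light against control at the 8-cell and blastocyst stages, control 4-cell against 2-cell embryos and light blastocysts against morulae because these groups share fewer than 2 numbers.

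Over all genes the number called in blastocysts was 680, against 272 by the median ratio, 242 by reads outside the rRNA genes, 235 by quantiles, 151 with edgeR and 450 with DESeq2, and 93.4% of the calls were lower in light embryos, against 53.7%, 40.5%, 44.3%, 64.9% and 52.0%. At the 8-cell stage 35.8% of calls were lower, against 48.4% with edgeR. Low members rest on few reads, since 1 read was worth up to 3.89.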
